A study of Mus musculus with 28 samples.

Results

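RNA levels of C10 cells 48h after induction of C/EBPα were compared with those of uninduced cells at 0h, the full span of the Pre-B to macrophage conversion. RNA abundance was deposited as TPM, in which the values of a library add up to a fixed total after correction for transcript length. Of the 55450 genes in the table, 22861 were above 0 in at least 1 of the 6 libraries compared, and the 8634 whose TPM averaged 1 or more over these libraries were taken into the comparison. C10 is a single mouse Pre-B line derived from HAFTL cells, and every library, at 0h as at 48h, carried the CEBPalpha-ER transgene, in which rat C/EBPα is fused to the hormone-binding domain of the estrogen receptor. The 0h cells were not induced. The 48h cells had received 100 nM β-estradiol together with 10 nM IL-3 and with CSF-1, so that the effects of the transgene and of the added cytokines cannot be told apart here. Each time point had 3 libraries, labelled as biological replicates. They were made from total RNA that, by the paper's methods, was depleted of ribosomal RNA, so the ribosomal RNA values below are those left after depletion. The series as a whole holds 12 RNA-seq libraries over all its time points.

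C/EBPα is a transcription factor of the myeloid lineage that drives granulocyte and macrophage genes and is known to slow cell division. Pre-B cells divide rapidly and invest heavily in DNA copying, histones and ribosomes, whereas macrophages are long-lived phagocytes that digest what they take up in acidic lysosomes, sense microbes through surface receptors and secrete chemokines and proteases. Macrophages also respond strongly to interferon, whose signal runs through STAT and IRF factors to a large set of antiviral genes.

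In the 6 libraries, 2 genes of the ribosomal RNA locus took between 75.7% and 82.9% of all TPM, and the remaining TPM differed between libraries. Values were therefore divided by median-of-ratios size factors, which lay between 1.08 and 1.32 at 0h and between 0.754 and 0.916 at 48h, and are given below as scaled TPM. The first principal component of the log2 values held 72.9% of the variance and separated the time points. The second held 12.5%, and on it replicate 3 of 48h stood apart (67.9), with replicate 3 of 0h at 35.1 and the other 4 libraries between -34.2 and -14.7. Replicate 3 of 48h was kept, and the counts that rest on it are given with and without it. The TPM do not keep the sequencing depth, for which the paper refers to its supplement and which was not used here. A TPM of exactly 0 can be a failed estimate: mt-Nd3, a mitochondrial gene that all cells use, was listed at 0 in all 3 libraries of 48h and in 1 library of 0h.

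Large numbers of genes changed in both directions. By limma on log2(scaled TPM + 0.1), at an adjusted p under 0.05, 2472 genes rose (28.6% of the 8634) and 2446 fell (28.3%), together 57.0%, while 3716 did not pass the test. In 32.3% of the genes every 48h library lay above every 0h library, and in 32.1% below it. More than 2-fold changes were found for 1887 genes that rose (21.9%) and 1924 that fell (22.3%). The upward changes reached further, as 97 genes rose and 35 fell by more than 64-fold. Over all genes tested the log2 fold change had a median of -0.0074, with quartiles at -0.99 and 0.93. Without scaling, the TPM gave 1552 higher and 3400 lower genes, so that 31.3% of the calls were higher instead of 50.3%, and the median of all genes moved to -0.49. All changes below are relative to the median gene. The level filter bears on the counts: of the 730 genes tested whose TPM averaged under 1 at 0h, 85.1% rose, and of the 1434 under 1 at 48h, 68.7% fell. Such genes reached the filter through the other time point, so the counts of lists that hold many of them describe their members and support nothing further. Of the 7904 genes at 1 or more at 0h, 23.4% rose, and of the 7200 at 1 or more at 48h, 20.3% fell. Log2 fold changes are on the log2(scaled TPM + 0.1) scale, which understates the change of genes near 0.

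**Figure D1:**
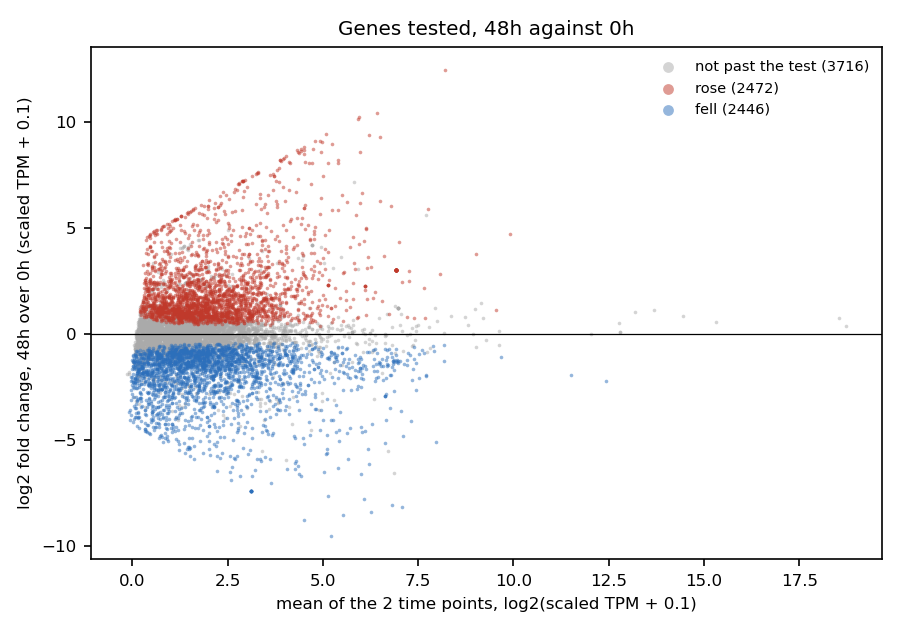
Log2 fold change at 48h against 0h (vertical axis) by mean level over the 6 libraries (horizontal axis, mean of the time points on the log2 scale) for the 8634 genes tested, coloured by whether they rose, fell or did not pass the test. The 2472 genes that rose and the 2446 that fell overlap in level, and the points reach further upward than downward, with Mmp12 at 12.42 as the highest value.

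Of the markers taken to check the labels, those tested moved with the labelled states. Among 8 Pre-B markers, the 6 that reached the level filter fell: Igll1, the surrogate light chain of the pre-B cell receptor, went from 46.4, 43.0 and 39.4 scaled TPM to 1.55, 1.12 and 1.27. Ebf1, Il7r, Pou2af1, Cd24a and Lef1 fell by 2.29, 2.64, 3.00, 3.91 and 3.29 on the log2 scale, and Dntt and Ikzf3 were under 1 scaled TPM in all 6 libraries. Among 11 macrophage markers the 8 tested rose, with Lyz2, the macrophage lysozyme, at 1.14, 1.30 and 1.14 before and 126, 129 and 133 after induction. Cd14, Fcer1g, Fcgr3 and Tyrobp had means of 0, 0, 0.0328 and 0.0782 at 0h. They reached the level filter through 48h alone, so their rise followed from their being tested. Cd68, Ctss and Cd300lf rose from means of 1.95, 5.64 and 1.44 at 0h. The 3 macrophage markers not tested were low at both times: Adgre1, which encodes F4/80, was listed at 0 in all but replicate 3 of 48h, where it was at 0.317, Mertk was listed at 0 in all 6, and Mrc1 had means of 0.352 at 0h and 0.756 at 48h. A listing at 0 in this table, as for mt-Nd3, does not show that Adgre1 and Mertk, markers of mature tissue macrophages, were not expressed. As these are bulk libraries, fewer cells of a type and less RNA per cell cannot be told apart.

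Of the lists of other cell types, 4 had no member that reached the level filter. All 20 T and NK cell genes, 16 erythroid and platelet genes, 15 mast cell and basophil genes and 15 neutrophil genes in the table were below the level filter, 13, 9, 13 and 7 of them being at 0 in all 6 libraries. Their summed levels at 48h reached at most 0.928, 1.39, 1.07 and 5.87 scaled TPM in any library, against at most 1.54, 0.626, 0.0169 and 0.811 at 0h. The neutrophil sum was higher at 48h in every library (3.86 to 5.87, against 0 to 0.811), S100a8 being its highest gene with a mean of 2.32. The dendritic cell genes summed to 11.6 to 15.5 at 0h and 85.8 to 173 at 48h, of which most was Bst2, an interferon-inducible gene with a mean of 98.4 at 48h, and Tcf4, the only members tested, which both rose. The part of these cell types in the other results was not tested. Of 19 fibroblast, endothelial and epithelial genes 12 were at 0 in all 6 libraries, and Pecam1 alone was tested (4.49 to 7.63, adjusted p = 0.00488).

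The largest increases were led by secreted proteases and inflammatory mediators. Mmp12, the macrophage elastase (chr9:7344381-7369499, mm10), was at 0, 0 and 0.0185 scaled TPM at 0h and at 650, 673 and 447 at 48h, a log2 fold change of 12.42 (SE 0.21, adjusted p = 7.03e-07). Its neighbour Mmp13, a collagenase, went from 0, 0 and 0.0185 to 133, 129 and 98.4. Il1rn, which encodes the antagonist of the IL-1 receptor, went from 0.0606, 0 and 0.0185 to 180, 186 and 147 (log2 fold change 10.42, SE 0.22, adjusted p = 7.03e-07). These 3 genes were thus near 0 in every uninduced library and abundant in every induced one. Lack of overlap between the time points was a condition of picking them. Thbs1, the adhesion glycoprotein thrombospondin, rose to 58.0, 60.2 and 62.8 (log2 fold change 9.10), Ccl2, the monocyte-attracting chemokine, to 59.4, 60.3 and 67.4 (9.04) and Tyrobp, the signalling adaptor of many myeloid receptors, to 65.4, 59.0 and 102 (8.94). Several further genes of this group were listed at 0 in all 3 uninduced libraries, so no fold change is given: Hp, the haemoglobin scavenger haptoglobin, at 43.3, 37.1 and 54.2 at 48h, and Cd14, the lipopolysaccharide co-receptor, at 48.0, 49.4 and 67.2. The remaining genes among the 12 largest increases were Ifi202b, Ifitm6, Irf7 and Cd74, described with the interferon and MHC genes.

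**Figure D2:**
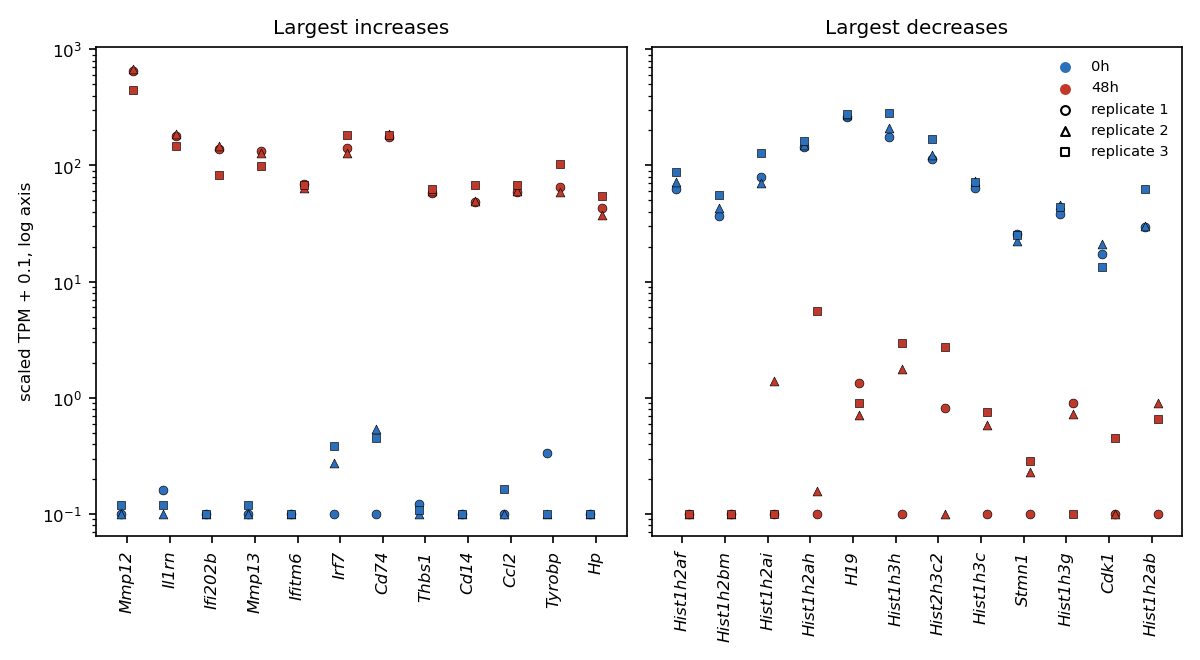
Scaled TPM in each library (points, scaled TPM + 0.1 on a log axis) for the 12 largest increases and the 12 largest decreases at a mean TPM of at least 10. Genes were chosen for a lack of overlap between the time points. In the increases the 0h points lie at or near 0, and in the decreases the 48h points do.

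The Mmp12 promoter is shown because this gene changed most and because a word bound by C/EBP factors lies in it. It is read from RefSeq on GRCm38.p6 at chr9:7344147-7344446, plus strand, 250 bases before to 50 after the start, with the word in capitals, 39 bases before the start.
Mmp12: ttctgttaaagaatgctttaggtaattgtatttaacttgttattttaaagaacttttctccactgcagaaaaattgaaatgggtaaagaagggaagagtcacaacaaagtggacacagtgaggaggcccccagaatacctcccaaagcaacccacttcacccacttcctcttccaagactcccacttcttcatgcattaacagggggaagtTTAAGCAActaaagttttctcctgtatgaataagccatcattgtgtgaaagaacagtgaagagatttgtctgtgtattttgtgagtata
The C/EBP word TTGCNNAA, searched on both strands, was in 9.85% of the promoters of genes more than 2-fold higher, 7.92% of those more than 2-fold lower and 7.55% of the other genes tested, against 10.8% of all 32851 promoters.

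The largest decreases were histone genes and H19. H19, an imprinted long non-coding RNA of fetal and proliferating cells (chr7:142575529-142578143), was at 262, 271 and 278 scaled TPM at 0h and at 1.25, 0.608 and 0.808 at 48h (log2 fold change -8.15, SE 0.25, adjusted p = 2.16e-06). Its imprinted neighbour Igf2, a growth factor, went from 95.1, 105 and 110 to 16.7, 17.9 and 15.7 (log2 fold change -2.62), although Igf2os overlaps its exons and the kit does not mark strand. Stmn1, which destabilises microtubules in dividing cells, went from 25.7, 22.4 and 25.2 to 0, 0.129 and 0.186 (-7.04). In Igf2 every 48h library was below every 0h library, as in 32.1% of all genes tested. The same held for H19 and Stmn1, but lack of overlap was a condition of picking them among the largest decreases.

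Replication-dependent histone genes, whose RNA is made in S phase and lacks a poly(A) tail, fell nearly as a block. Of 70 such genes 62 were tested, 60 fell and none rose, against 28.3% falling among all genes, with a median log2 fold change of -4.62. Of the 42 that stayed at 1 TPM or more at 48h, 40 fell. Their summed level was 4470, 5380 and 6160 scaled TPM in the 0h libraries and 185, 207 and 400 in those of 48h. Hist1h1b, a linker histone, went from 60.4, 65.3 and 71.3 to 1.22, 0.655 and 2.00 (log2 fold change -5.68, adjusted p = 3.34e-05). Hist1h2af and Hist1h2bm had means of 74.3 and 45.0 at 0h and were listed at 0 in all 3 libraries of 48h. Hist1h4m and Hist1h2aj did not pass the test. Copies of a histone class are near-identical and may share reads, so the level of a single copy is uncertain and the sum is the better measure. Without replicate 3 of 48h, which had the highest histone sum of its time point, 60 genes fell.

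The machinery that copies DNA fell with the histones. Of 52 DNA replication genes tested 46 fell and none rose (median log2 fold change -3.13), of which 36 were under 1 TPM at 48h, and their summed level went from 406, 417 and 422 to 83.5, 76.4 and 73.7. Mcm5, a subunit of the replicative helicase, was at 13.1, 12.1 and 13.9 scaled TPM at 0h and at 0.186, 0.129 and 0.109 at 48h (log2 fold change -5.78, SE 0.20, adjusted p = 3.31e-06). Uhrf1, which guides maintenance of DNA methylation behind the fork, went from 20.2, 18.6 and 20.7 to 0.146, 0.246 and 0.338 (-5.90). Pcna, the sliding clamp of the polymerases, kept more of its RNA, at 5.62, 6.73 and 4.64 after 40.9, 43.8 and 37.5 (-2.84). Of 40 nucleotide synthesis genes 33 fell and 4 rose, 20 of the 33 being under 1 TPM at 48h. Of the 19 at 1 TPM or more at 48h, 13 fell and 4 rose. Rrm2, the ribonucleotide reductase subunit made in S phase, was at -5.98. Shmt2, the mitochondrial enzyme that feeds folate carbons into purines, was at -5.19. Of 35 DNA repair genes 25 fell and 3 rose, against 28.3% and 28.6% of all genes. Under 1 TPM at 48h were 20 of the 25. Of the 12 repair genes at 1 TPM or more at 48h, 5 fell and 3 rose.

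Replication genes are known targets of E2F factors, and the promoters of Mcm5 and Mcm3 are shown because both helicase subunits fell steeply and carry E2F words. Mcm3, chosen after its values were seen, went from 15.2, 15.2 and 13.4 to 0.172, 0.175 and 0.491 (log2 fold change -5.38). Both are RefSeq sequences on GRCm38.p6, chr8:75109259-75109558 on the plus strand and chr1:20820263-20820562 on the minus strand, each written along its gene, with the E2F words in capitals. In Mcm5 overlapping words begin 153 and 149 bases before the start, and in Mcm3 words begin 20 and 39 bases after it.
Mcm5: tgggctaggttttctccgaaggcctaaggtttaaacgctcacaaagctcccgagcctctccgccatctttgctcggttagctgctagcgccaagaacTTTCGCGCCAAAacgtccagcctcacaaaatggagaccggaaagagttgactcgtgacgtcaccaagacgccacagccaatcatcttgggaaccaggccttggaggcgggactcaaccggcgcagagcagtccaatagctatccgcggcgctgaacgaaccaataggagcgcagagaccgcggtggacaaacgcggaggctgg
Mcm3: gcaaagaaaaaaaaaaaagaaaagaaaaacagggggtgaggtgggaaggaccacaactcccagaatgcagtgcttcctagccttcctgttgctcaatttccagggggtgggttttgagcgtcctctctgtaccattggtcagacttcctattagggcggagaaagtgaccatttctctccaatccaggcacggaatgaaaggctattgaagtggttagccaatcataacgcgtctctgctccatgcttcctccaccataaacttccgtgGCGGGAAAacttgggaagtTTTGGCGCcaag
At least 1 of the words TTTCCCGC, TTTGGCGC, TTTCGCGC and TTTGCCGC, on either strand, was in 33.3% of the 54 promoters of the DNA replication genes, against 2.26% of all promoters. Among genes more than 2-fold lower the share was 7.75%, among those more than 2-fold higher 2.41% and among the other genes tested 3.8%.

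Mitosis genes fell too. Of 65 tested 64 fell and none rose (median log2 fold change -4.19), of which 58 were under 1 TPM at 48h, and their sum went from 376, 374 and 369 scaled TPM to 31.7, 30.7 and 31.7. Cdk1, the kinase that drives entry into mitosis, was at 17.3, 21 and 13.4 at 0h and at 0, 0 and 0.349 at 48h (log2 fold change -6.69, adjusted p = 0.000147). Ube2c, which passes ubiquitin to cyclins at the end of mitosis, was at 12.1, 12.0 and 11.7 and then listed at 0 in all 3 libraries. Top2a, the topoisomerase that untangles sister chromosomes, fell by 5.89 on the log2 scale, and Ccnb1 and Mki67, chosen after their values were seen, fell by 6.30 and 5.64. The family of Cdca genes, for cell division cycle associated proteins, fell in all 7 members tested (median -3.91).

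Many mitosis promoters hold the cell cycle homology region (CHR), the word TTTGAA, bound by the DREAM and MYB-MuvB complexes. The promoters of Ube2c (chr2:164769679-164769978, plus strand) and Cdk1 (chr10:69352863-69353162, minus strand), RefSeq on GRCm38.p6, are shown as examples, with the CHR word, on either strand, in capitals. It lies 29 bases before the start in Ube2c and 71 and 15 bases before it in Cdk1.
Ube2c: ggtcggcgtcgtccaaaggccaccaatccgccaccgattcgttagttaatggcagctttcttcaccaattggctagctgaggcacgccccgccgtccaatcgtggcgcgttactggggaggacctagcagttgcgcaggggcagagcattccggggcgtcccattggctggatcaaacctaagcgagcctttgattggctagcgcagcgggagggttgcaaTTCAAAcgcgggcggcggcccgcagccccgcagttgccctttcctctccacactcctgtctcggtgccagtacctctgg
Cdk1: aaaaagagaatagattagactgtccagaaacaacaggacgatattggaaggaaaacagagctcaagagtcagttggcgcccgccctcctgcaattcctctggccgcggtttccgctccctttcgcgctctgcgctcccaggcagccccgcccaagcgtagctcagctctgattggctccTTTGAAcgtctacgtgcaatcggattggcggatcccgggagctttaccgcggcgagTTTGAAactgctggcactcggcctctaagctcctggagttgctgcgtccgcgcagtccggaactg
The word was in 71.7% of the 60 promoters of mitosis genes and in 17.9% of all promoters, and the CCAAT box in 68.3% and 37.4%. Among genes more than 2-fold lower as a whole the CHR share was 16.3%, among those more than 2-fold higher 12.5% and among the other genes tested 10.9%.

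Genes that restrain the cycle moved the other way. Of 14 cell cycle inhibitor and anti-proliferative genes tested 11 rose and none fell (median log2 fold change 1.96), and their sum went from 30.5, 31.9 and 35.4 to 111, 108 and 125. Cdkn1a, which encodes the CDK inhibitor p21, rose from 1.14, 1.83 and 0.831 to 29.6, 28.7 and 24.1 (log2 fold change 4.39, SE 0.28, adjusted p = 3.63e-05). Among 10 E2F and RB family genes 8 fell, among them all 5 tested E2f genes, and Rb1, the retinoblastoma repressor of E2F, rose (1.70), as did its relative Rbl2 (1.17, adjusted p = 0.0289, not past the test when either of replicates 2 and 3 of 0h or of replicates 1 and 2 of 48h was left out). Of 7 G1 cyclin and kinase genes 6 fell. Cyclin D3 (Ccnd3), the D cyclin of lymphoid precursors, went from 89.4, 102 and 101 to 29.3, 34.6 and 42.6 (-1.47), and its partner Cdk6, chosen after its values were seen, fell by 2.01 on the log2 scale. Cyclin D1 (Ccnd1) instead rose from 11.4, 15.8 and 17.7 to 28.8, 29.0 and 30.0 (0.99), a call that was lost without scaling.

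**Figure D3:**
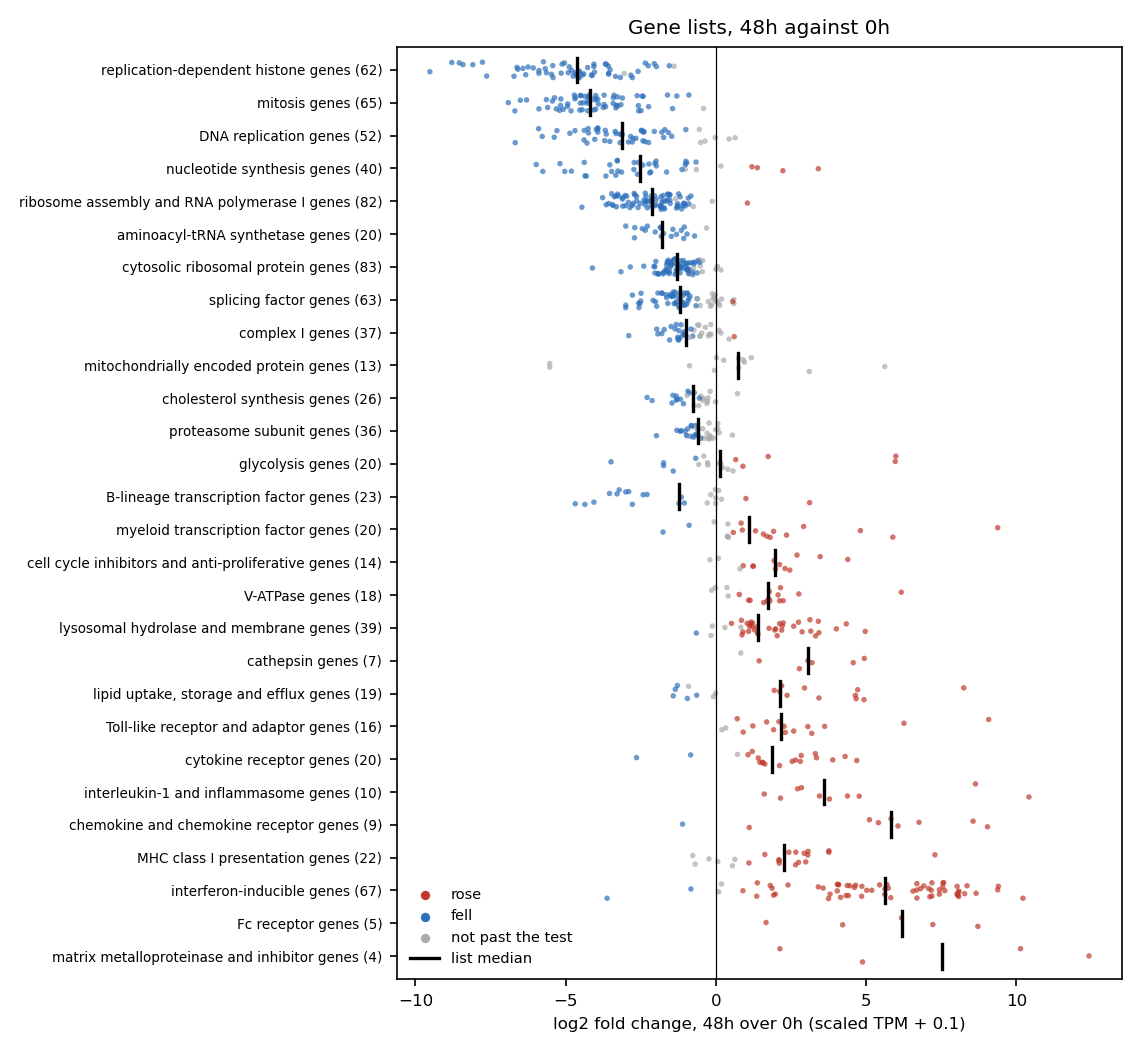
Log2 fold change at 48h against 0h (horizontal axis) of each tested member (points, coloured by the test) of selected gene lists, with the list's median as a bar and the number of members tested in parentheses. The medians of the mitosis and histone genes lie lowest, at -4.19 and -4.62, and matrix metalloproteinase, Fc receptor, chemokine and interferon-inducible genes highest, at 7.51, 6.18, 5.83 and 5.63. Many of these members reached the level filter through 1 time point, so the order describes the tested members only. Under 1 TPM at 48h were 58 of 65 mitosis and 20 of 62 histone genes. Under 1 TPM at 0h were 3 of 4 metalloproteinase, 3 of 5 Fc receptor, 5 of 9 chemokine and 44 of 67 interferon-inducible genes. Of 26 metalloproteinase and inhibitor genes in the list 4 were tested.

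Genes of growth fell along with those of division. Of 83 cytosolic ribosomal protein genes tested 72 fell and none rose (median log2 fold change -1.28). These genes summed to 10100, 11300 and 12100 scaled TPM at 0h and 4760, 4780 and 6250 at 48h. Rpl22l1, a paralogue of Rpl22, went furthest, from 9.25, 9.32 and 10.8 to 0.358, 0.515 and 0.568 (-4.11), while Rps24 gave 278, 301 and 264 at 0h and 314, 328 and 239 at 48h and did not pass the test. Of 82 ribosome assembly genes 78 fell (median -2.12), 36 of them to under 1 TPM at 48h, with a sum of 845, 854 and 842 at 0h and 181, 186 and 178 at 48h. Npm1, the nucleolar chaperone nucleophosmin, went from 187, 177 and 169 to 28.3, 29.5 and 17.4 (log2 fold change -2.86, adjusted p = 9.82e-05). Heatr1 was the 1 assembly gene that rose (1.05), but Lgals8 overlaps its exons and the call was lost without scaling. All 8 Nop genes, for nucleolar proteins, fell (median -2.43), as did 8 of 9 Snhg genes, the hosts of snoRNAs (-2.32).

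Protein synthesis and folding genes followed. Of 20 aminoacyl-tRNA synthetase genes, which charge tRNAs with their amino acids, 19 fell (median log2 fold change -1.78), Vars, for valine, from 17.3, 19.9 and 24.8 to 2.70, 2.43 and 2.27 (-3.00). Of 59 translation factor genes 41 fell and 3 rose, 1 without scaling. Eef1a1, the elongation factor that delivers charged tRNAs, went from 1070, 1130 and 1170 to 513, 516 and 540 (-1.10, adjusted p = 0.00145). All 7 Cct genes, subunits of the chaperonin that folds actin and tubulin, fell (median -1.83). Of 63 splicing factor genes 46 fell and 1 rose (median -1.19), and 8 of 9 Exosc genes, for the RNA exosome, fell (-2.42). Myc, the transcription factor that drives ribosome production, fell from 24.7, 24.2 and 26.5 to 9.31, 10.9 and 10.8 (-1.28, adjusted p = 0.000403), and Mxd1, its antagonist in binding MAX, rose from 0.560, 0.321 and 0.406 to 7.27, 7.82 and 8.50 (3.93). The ER chaperone and stress genes did not fall as a list: of 28 tested 9 rose and 6 fell, without scaling 5 and 10. The shares of 32.1% and 21.4% lay near the 28.6% and 28.3% of all genes. Among those that fell were Atf4, a stress-induced transcription factor, by 1.79, Asns, asparagine synthetase, by 3.09 and Trib3, an inhibitor of that factor, by 3.15 on the log2 scale.

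Respiratory genes of the nuclear genome fell moderately. Of 37 complex I genes 21 fell and 1 rose (median log2 fold change -1.01), of 26 genes of complexes II to IV 17 fell, of 21 TCA cycle genes 15 fell, and of 78 mitochondrial ribosomal protein genes 50 fell (median -1.20). The 13 mitochondrially encoded protein genes gave no call in the limma fit, with a median of 0.75, and their values scattered widely within a time point: mt-Co3 was at 263, 103 and 131 at 0h and at 0.345, 0.526 and 129 at 48h, and mt-Atp6 at 0, 39.9 and 0.00923 and then 514, 702 and 0.0437. Both genes, chosen after their values were seen, overlap each other, and replicate 3 of 48h lay far from the other libraries of its time point in each. Without that replicate 8 of the 13 rose and 1 fell.

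Of 20 glycolysis genes 5 rose and 5 fell, shares near the 28.6% and 28.3% of all genes, and 3 and 8 without scaling. Hk3, the hexokinase of myeloid cells, rose from 0, 0.186 and 0 to 7.82, 7.32 and 12.4 (log2 fold change 5.99), Slc2a6, a sugar transporter, rose from 0.159, 0.144 and 0.434 to 16, 15.7 and 32.7 (5.97), and Ldha, lactate dehydrogenase, fell from 64.3, 67.3 and 67.6 to 16.7, 20.3 and 22.7 (-1.74). Gapdh gave 121, 118 and 150 at 0h and 141, 151 and 132 at 48h and did not pass the test. Slc16a1, the lactate exporter MCT1, fell by 3.49 on the log2 scale. In the pentose phosphate pathway the oxidative entry enzyme G6pdx, which makes NADPH, rose (3.47), although Ikbkg overlaps it, and transketolase (Tkt) of the non-oxidative branch fell (-1.66). Of 26 cholesterol synthesis genes 13 fell and none rose, 8 falling without replicate 2 of 0h and 21 without scaling. Of 19 genes of lipid uptake, storage and efflux 11 rose and 5 fell, with Plin2, the coat of lipid droplets, going from 1.11, 2.14 and 1.05 to 50.1, 40.5 and 43.3 (4.93, adjusted p = 2.33e-05) and Cd36, the fatty acid and oxidised LDL receptor, from 0.750, 0.473 and 0.378 to 18.2, 18.4 and 12.6 (4.72).

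Over the 17 iron and haem genes tested 6 rose and 5 fell, shares near those of all genes (28.6% and 28.3%), and 3 fell without replicate 1 of 0h. The ferritin heavy chain gene Fth1, which stores iron, went from 61.8, 65.3 and 74.6 scaled TPM to 475, 449 and 491 (log2 fold change 2.81, SE 0.16, adjusted p = 2.07e-05), and the light chain gene Ftl1 from 38.6, 45.3 and 50.0 to 201, 201 and 382 (2.48). Hmox1, the haem oxygenase that frees iron from haem, rose from 0.946, 0.938 and 0.942 to 14.2, 11.3 and 17.3 (3.76). The transferrin receptor Tfrc, by which dividing cells import iron, fell from 10.3, 13.4 and 7.59 to 3.69, 3.58 and 0.797 (-2.14, adjusted p = 0.0169, not past the test without replicate 1 or 2 of 0h).

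Genes of the lysosome rose across its parts. Of 18 V-ATPase genes, for the pump that acidifies it, 14 rose and none fell (median log2 fold change 1.73, sum 80.7, 77.6 and 87.5 at 0h and 368, 380 and 390 at 48h). Atp6v0a1, a membrane subunit of the pump, rose from 1.48, 1.99 and 1.38 to 129, 131 and 109 (6.17, SE 0.19, adjusted p = 2.16e-06). Of 39 lysosomal hydrolase and membrane genes 34 rose and 1 fell (median 1.40), their sum going from 139, 130 and 135 to 892, 920 and 946. Grn, progranulin, rose from 4.47, 3.47 and 4.83 to 134, 141 and 131 (4.97) and Psap, the precursor of the saposins that help degrade sphingolipids, from 11.5, 11 and 13.0 to 221, 230 and 275 (4.34). Of 7 cathepsin genes, the lysosomal proteases, 6 rose. Ctsd reached 116, 123 and 167 from 3.95, 4.0 and 4.87 (4.94), and Ctsb 92.3, 89.9 and 134 from 3.76, 3.82 and 5.40 (4.57), with an overlapping gene in each case. Autophagy genes rose in 14 of 24 and Rab GTPase genes, which direct vesicle traffic, in 19 of 34, without scaling in 8 and 9. Of 36 proteasome subunit genes 17 fell and none rose, 10 falling without replicate 3 of 0h and 26 without scaling.

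**Figure D4:**
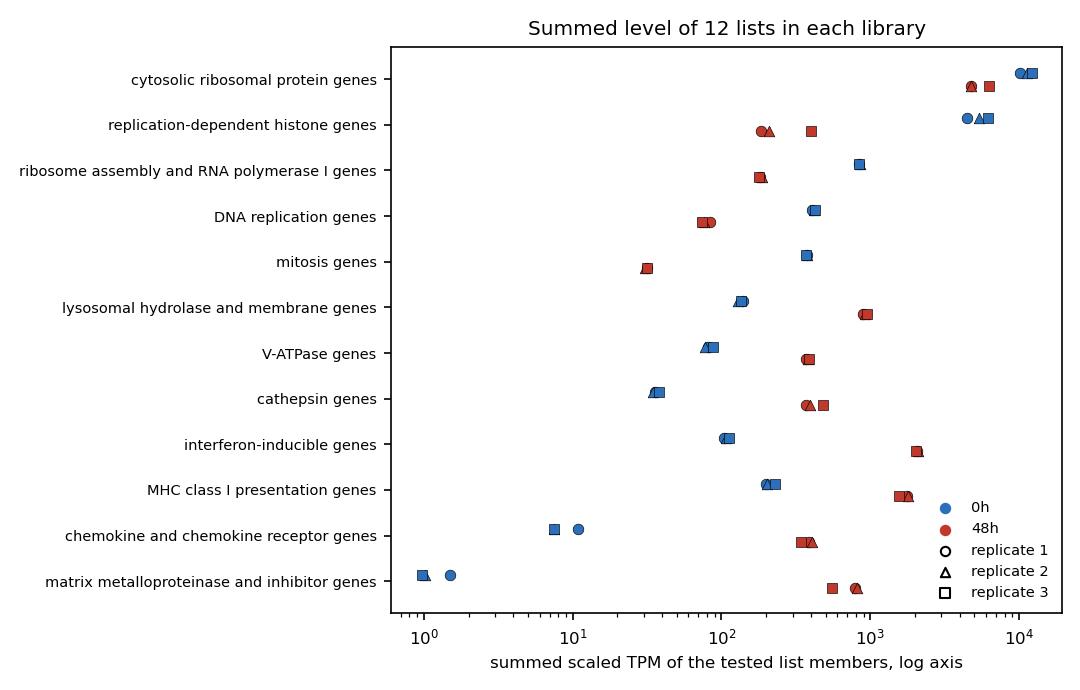
Summed scaled TPM of the tested members of 12 lists in each of the 6 libraries (points, horizontal axis on a log scale), coloured by time point and shaped by replicate. The histone sums drop from between 4470 and 6160 to between 185 and 400, and those of the lysosomal, V-ATPase and interferon-inducible genes rise, with no overlap between time points.

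Receptor genes of phagocytes rose. Of 16 Fc receptor genes 5 reached the filter and rose, 3 of them from under 1 TPM at 0h: Fcgr3, an activating receptor for IgG, went from 0.0984, 0 and 0 to 51.8, 55.7 and 51.3 (log2 fold change 8.72, adjusted p = 2.89e-06), and Fcgr2b, the inhibitory one that B cells also carry, from 7.47, 5.88 and 5.17 to 119, 121 and 107 (4.22). Of 6 complement genes tested 5 rose, 4 of them from under 1 TPM at 0h, among them C3ar1, a receptor for the C3a fragment, from 0, 0 and 0.0369 to 42.0, 45.7 and 35.3 (8.52). Of 16 Toll-like receptor and adaptor genes 14 rose, 7 of them from under 1 TPM at 0h. Tlr2, which senses bacterial lipoproteins, went from 0.197, 0.237 and 0.332 to 28.4, 26.4 and 25.8 (6.26) and Tlr4, which senses lipopolysaccharide, from 1.98, 2.44 and 2.12 to 13.1, 11.1 and 8.68 (2.27). Among 13 paired and inhibitory immunoglobulin-like receptor genes 12 rose, 9 of them from under 1 TPM at 0h. Siglec1, a sialic acid receptor of macrophages, reached 39.3, 41.5 and 53.9 from 0, 0 and 0.0923 (8.49), and Cd33 reached 28.2, 29.1 and 29.5 from a listing at 0 in all 3 libraries. The 1 that fell was Cd22, the Siglec of B cells, from 7.06, 7.72 and 11.3 to 1.07, 0.643 and 1.45 (-2.96). None of the 19 Ms4a genes in the table reached the filter.

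Effector and signalling genes of macrophages rose with them. Cybb, the catalytic subunit of the phagocyte NADPH oxidase, went from 2.26, 1.65 and 3.06 scaled TPM to 177, 183 and 173 (log2 fold change 6.24, adjusted p = 4.01e-06), and 5 of the 9 genes of that complex rose. The 10 interleukin-1 and inflammasome genes tested rose, 9 of them from under 1 TPM at 0h. Il1b, the cytokine itself, was listed at 0 in all 3 libraries of 0h and was at 38.4, 44.1 and 37.1 at 48h. Of 60 chemokine and chemokine receptor genes 9 reached the filter and 8 rose, 5 of them from under 1 TPM at 0h. Ccl9 went from 0.379, 0.363 and 0.0646 to 122, 142 and 113 (8.56) and Ccl3 from 1.91, 0.591 and 1.45 to 85.4, 82.1 and 56.6 (5.83), both ligands of Ccr1. Of the receptors, Ccr1 and Ccr2, the latter chosen after its values were seen, rose by 6.76 and 5.11 on the log2 scale, and Cxcr4, which holds B cell precursors in the bone marrow, fell by 1.11. Csf2rb, the shared beta chain of the receptors for IL-3 and GM-CSF, rose from 1.55, 1.56 and 2.81 to 47.9, 42.8 and 67.3 (4.69). It was 1 of 17 cytokine receptor genes that rose among 20 tested.

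Genes of adhesion and shape rose more often than they fell. Of 18 adhesion molecule genes 13 rose and 3 fell. Itgb2, the beta chain of the leukocyte integrins, rose from 0.886, 1.35 and 1.14 to 11.9, 12.4 and 12.3 (3.35). Of 47 actin, annexin and podosome genes 31 rose and 6 fell, without scaling 20 and 10. Tmsb4x, which binds actin monomers, went from 15.5, 17.6 and 13.5 to 129, 150 and 138 (3.15), and Tubb5, a tubulin of proliferating cells, from 102, 102 and 104 to 21.5, 24.7 and 27.2 (-2.07). Families grouped by their symbols were named only where at least 80% of their tested genes passed the test in 1 direction. Moving together was thus a condition of naming them. Other families were mixed, such as Kif, with 5 genes rising and 9 falling of 17. Among those named, all 6 tested Adam genes, membrane proteases that shed surface proteins, rose (median 2.19). All 5 Abca lipid transporters (2.05), all 5 Rassf genes (1.85) and 5 of 6 annexin genes (2.20) rose as well.

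The interferon-inducible genes rose in greater number than any other list tested. Of 85 such genes 67 were tested, 63 rose and 2 fell, against 28.6% and 28.3% of all genes, with a median log2 fold change of 5.63. Under 1 TPM at 0h were 44, which all rose, and of the other 23 members 19 rose and 2 fell. Their sum was 104, 108 and 113 scaled TPM at 0h and 2060, 2090 and 2020 at 48h. Irf7, the amplifier of type I interferon production, went from 0, 0.177 and 0.286 to 140, 127 and 181 (9.38, adjusted p = 1.62e-05), although Phrf1 overlaps it. Oasl2, an antiviral protein of the oligoadenylate synthetase family, rose from 0.136, 0.152 and 0.203 to 73.2, 75.8 and 61.1 (8.06). Ifitm6, a relative of the interferon-induced membrane proteins, was listed at 0 in all 3 libraries of 0h and was at 69.7, 64.1 and 68.4 at 48h. Mx1, an antiviral GTPase, was listed at 0 in the 3 uninduced libraries and was at 33.7, 30.4 and 34.3 at 48h. Isg15, a ubiquitin-like modifier, rose by 6.68 and Ifit3, which restricts viral RNA, by 8.09. Oasl2, Mx1, Isg15 and Ifit3 were chosen after their values were seen. The 2 that fell were Ifi30, a lysosomal thiol reductase, from 18.8, 21.3 and 23.2 to 1.25, 1.66 and 2.03 (-3.62), and Irf3, the sensor-activated factor upstream of interferon production (-0.83, adjusted p = 0.0404, not past the test when any library but replicate 3 of 48h was left out).

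Many of these genes lie in clusters, which were delimited after the values were seen. On chr1:173468485-174031810 all 11 Ifi200 genes tested, sensors of DNA, rose, and so did all 13 genes tested in the span. Ifi202b was listed at 0 in the 3 libraries of 0h and was at 139, 147 and 82.7 at 48h. On chr11:82951349-83215154 all 7 Schlafen genes rose, with 9 of 9 genes tested in the span. Slfn5 went from 0.114, 0.296 and 0.286 to 91.9, 94.5 and 66.2 (log2 fold change 8.03). All 5 Ifit genes on chr19:34550694-34650009 rose too. Members of these clusters are similar in sequence, so the split of reads between copies is uncertain. Of 10 Parp genes 8 rose (median 1.93), Parp14 and Parp9 foremost, and Parp1 fell.

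The promoters of Ifi207 and Ifitm3, the latter chosen after its values were seen, are shown because both genes were near or at 0 before induction and hold the interferon response word GAAANNGAA. Ifi207 went from 0, 0.0338 and 0 to 52.3, 50.9 and 32.9 and Ifitm3, which blocks virus entry, was listed at 0 and then at 27.6, 28.7 and 37.7. Both are RefSeq on GRCm38.p6 and on the minus strand, at chr1:173741760-173742059 and chr7:141010695-141010994, written along the gene with the word in capitals. It begins 41 bases before the start in Ifi207 and 3 and 20 bases after it in Ifitm3.
Ifi207: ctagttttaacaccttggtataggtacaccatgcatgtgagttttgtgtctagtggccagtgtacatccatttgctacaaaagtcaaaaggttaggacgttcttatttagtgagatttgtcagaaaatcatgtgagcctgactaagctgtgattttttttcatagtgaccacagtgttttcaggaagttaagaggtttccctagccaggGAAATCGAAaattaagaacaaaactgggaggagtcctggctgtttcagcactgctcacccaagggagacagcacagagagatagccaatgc
Ifitm3: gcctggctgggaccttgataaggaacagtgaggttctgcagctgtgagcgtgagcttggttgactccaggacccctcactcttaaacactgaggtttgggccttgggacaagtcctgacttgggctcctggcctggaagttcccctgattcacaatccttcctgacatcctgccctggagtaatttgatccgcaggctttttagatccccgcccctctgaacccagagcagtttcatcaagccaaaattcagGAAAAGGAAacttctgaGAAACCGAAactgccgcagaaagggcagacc
The word, on either strand, was in 51.5% of the 66 promoters of the interferon-inducible genes and in 8.56% of all promoters. Among genes more than 2-fold higher its share was 11.4%, among those more than 2-fold lower 7.21% and among the other genes tested 6.56%.

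**Figure D5:**
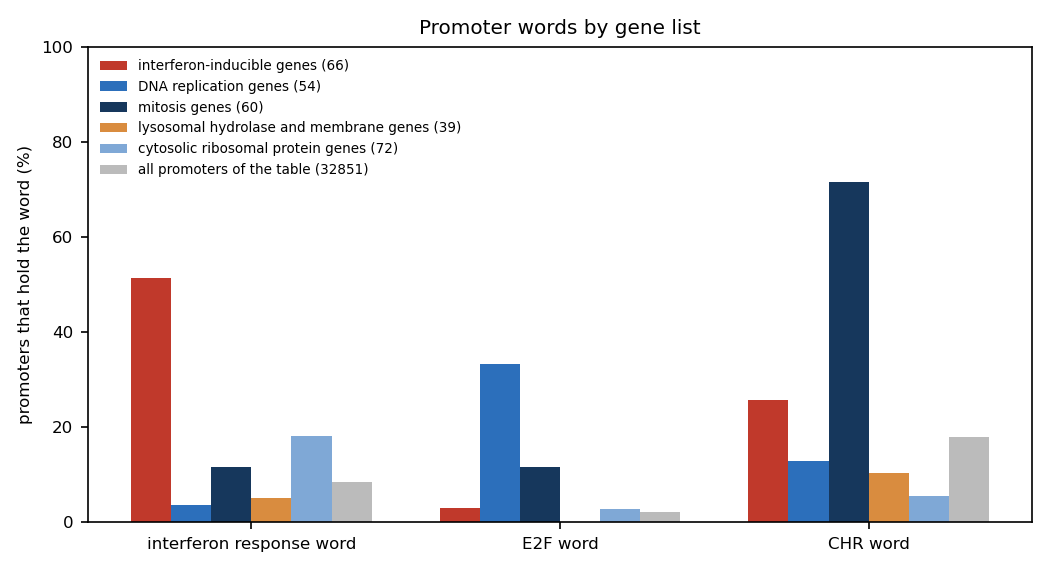
Share of promoters (percent, vertical axis, 250 bases before to 50 after the start) that hold the interferon response, E2F or CHR word, for 5 gene lists (coloured bars, number of promoters in parentheses) and all promoters (grey). Each word peaks in its own list, at 51.5% in the interferon-inducible genes, 33.3% in the DNA replication genes and 71.7% in the mitosis genes.

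Antigen presentation genes rose on both arms. Of 22 MHC class I presentation genes 16 rose and none fell (median log2 fold change 2.27), with a sum of 200, 203 and 229 at 0h and 1770, 1780 and 1560 at 48h. B2m, the invariant light chain of class I, rose from 71.2, 68.7 and 64.8 to 1170, 1150 and 589 (3.76, SE 0.29, adjusted p = 8.16e-05). Replicate 3 of 48h was the lowest of the induced libraries and still above every uninduced one. H2-D1, a classical heavy chain, rose from 30.8, 34.8 and 37.0 to 217, 225 and 368 (2.94), and reads of the H2 genes may be shared between copies. Nlrc5, the transactivator of class I genes, chosen after its values were seen, rose by 3.07. Psmb8, a subunit of the immunoproteasome that makes class I peptides, gave 12.2, 15.6 and 17.5 at 0h and 13.8, 13.9 and 19.8 at 48h and did not pass the test. On the class II side the 5 tested genes of 12 rose, 3 of them from under 1 TPM at 0h, and Cd74, the invariant chain, went from 0, 0.439 and 0.351 to 174, 185 and 184 (9.29, adjusted p = 4.04e-05).

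Transcription factors of the B lineage fell and those of the myeloid lineage rose, in part. Of 23 B-lineage factor genes 14 fell and 2 rose (median log2 fold change -1.23), against 28.3% and 28.6% of all genes. Under 1 TPM at 48h were 8 of the genes that fell. Of the 14 factor genes at 1 TPM or more at 48h, 6 fell and 2 rose. Myb, required in lymphoid and blood progenitors, went from 15.5, 13.5 and 14.5 to 0.331, 0.491 and 0.622 (-4.68, adjusted p = 1.33e-05) and Bach2, a repressor that favours the lymphoid fate, from 4.76, 3.16 and 3.77 to 0.199, 0.0936 and 0.0218 (-4.36). Of 20 myeloid factor genes 13 rose and 2 fell (median 1.10). Spi1, which encodes PU.1 and was chosen after its values were seen, rose from 6.74, 6.23 and 6.60 to 31.2, 37.8 and 32.0 (2.35), whereas Irf8, a factor of both lineages, gave 14.8, 14.9 and 17.9 at 0h and 15.3, 15.1 and 25.4 at 48h and did not pass the test. Zeb2 (2.92), Klf6 (3.42), Id2 (3.12) and the AP-1 genes Jun (3.01), Fos (1.77) and Fosl2 (5.52) rose. Of 13 DUSP, Sprouty and Spred genes, feedback inhibitors of MAP kinase signalling, 4 rose (30.8%) and 6 fell (46.2%), against 28.6% and 28.3% of all genes. Dusp1 rose by 4.6 on the log2 scale.

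B cell signalling genes were called in both directions, against the 28.6% that rose and 28.3% that fell among all genes. Of 25 tested in the pre-B and B cell receptor list 10 rose and 10 fell (40.0% each), with 6 and 5 rising without replicate 1 or replicate 3 of 0h and 3 rising without scaling. The constant gene Ighm of the immunoglobulin heavy chain fell from 48.4, 46.7 and 45.4 to 13.8, 14.9 and 14.8 (-1.69), so that its RNA was still clearly measured at 48h.

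Chromatin genes were called in both directions, against the 28.6% that rose and 28.3% that fell among all genes: of 21 Polycomb genes 4 rose and 6 fell, of 21 SWI/SNF genes 1 rose and 9 fell, and of 109 Zfp zinc finger genes 15 rose and 15 fell. Without scaling 10 Polycomb genes fell and the Zfp counts were 8 and 30, and without replicate 3 of 48h 25 Zfp genes rose. Lmnb1, the B-type lamin of proliferating nuclei, went from 20.3, 23.2 and 22.0 to 0.252, 0.503 and 0.175 (log2 fold change -5.82, adjusted p = 1.61e-05). Dnmt1, the maintenance DNA methyltransferase, fell from 14.1, 17.8 and 16.8 to 1.82, 3.01 and 2.39 (-2.73) and Tet2, which oxidises methylcytosine, rose from 1.72, 1.61 and 1.10 to 12.3, 12.6 and 12.7 (3.03). Daxx, a chaperone that deposits variant H3 histones, rose from 1.39, 2.15 and 2.71 to 36.1, 34.4 and 37.2 (4.09), and H2afx, the histone variant of DNA damage signalling, went from 31.2, 37.9 and 46.4 to 0.252, 0.503 and 0.906 (-5.99).

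Promoter contacts of these genes were read from the pooled lists of promoter capture interactions, which hold 138769 pairs at 0h and 144072 at 48h and have no replicates, so no test was made. Genes more than 2-fold higher had a mean of 13.8 contacts at 0h and 15.5 at 48h (1552 genes with a captured fragment), and 51.0% of them had more contacts at 48h and 40.3% fewer. Genes more than 2-fold lower went from a mean of 16 to 12.9 (1767 genes), with 31.1% having more and 60.1% fewer. The other genes tested went from 14.5 to 13.0 (4364 genes), with 38.3% having more and 52.6% fewer, so fewer contacts at 48h were common outside the falling genes too. The bait fragment of Mmp12 had 14 contacts at 0h and 66 at 48h. As the score column of the 48h list has no named unit, an equal score cutoff in both lists could not be checked.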

How the data were processed

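RNA-seq values were the TPM per gene that the authors deposited, estimated with RSEM after trimming with Trim Galore 0.6.2 and alignment with HISAT2 2.1.0 to mm10 (Ensembl release 96 genes). FastQC was also named in the submitters' processing notes. The kit does not mark strand. All 55450 identifiers matched GENCODE M21. TPM were divided by median-of-ratios size factors over genes above 0 in all 6 libraries, and 48h was compared with 0h in limma 3.58.1 (R 4.3.3, log2(scaled TPM + 0.1), trended eBayes), with Benjamini-Hochberg adjustment over the 8634 genes whose TPM averaged 1 or more. A gene rose or fell at an adjusted p under 0.05. P-values measure the spread between replicates of 1 cell line. The unit needs no count model, so the DESeq2 step of the authors was not repeated. On simulated data with the levels of these 8634 genes the fit recovered 24% of 2-fold and 70% of 4-fold changes and called 7 unchanged genes. In that simulation 200 genes changed, as many up as down, and all 48h values were multiplied by 0.5. In the data 57.0% of the genes were called, so these rates need not hold there.

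The comparison, its members and the 88 gene lists were chosen with earlier results of these data known, and the genes the study names were left out of the lists. Lists are described by counts and medians, with no test. Genes named in the text were drawn, not in full, from the 12 largest increases and the 12 largest decreases at a mean TPM of at least 10 without overlap between time points, in each list the 3 largest increases, the 3 largest decreases and the 2 most abundant members at each time, and symbol families of at least 5 genes tested with at least 80% past the test in 1 direction. Overlapping genes are those with a shared exon base and a mean TPM of at least 0.5. Promoters are RefSeq windows on GRCm38.p6, searched on both strands. Of the deposited contact lists (2 replicates merged by the authors, CHiCAGO score of at least 5) only the numbers of contacts per gene were used, as the score column of the 48h list holds whole numbers whose unit is not given in the sources used here. Python 3.11.15, numpy 2.4.6, pandas 2.3.3, matplotlib 3.10.9 and bedtools 2.31.1 were used. Pseudocounts, level filters, scalings, libraries left out and model terms were varied, as given at the end. Some results are not reported here.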

Additional observations from a re-analysis of the deposited data

How the results depend on the processing

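The counts of genes that rose and fell moved most with the level filter and the scaling. At a mean TPM of at least 5, with fewer genes tested, 983 genes rose and 970 fell, 753 and 731 by more than 2-fold, and at a mean of at least 0.1, 2877 rose by more than 2-fold. TPM as deposited gave 1552 higher genes, and 2887 more than 2-fold lower. Asking for a 4-fold change left 910 higher and 864 lower. Leaving out 1 library gave 2070 to 2489 higher and 1982 to 2507 lower genes, and 1767 to 1945 and 1741 to 2020 by more than 2-fold. Replicate numbers were shared between time points, and the deviations of same-numbered libraries correlated at 0.170, 0.0832 and 0.403. Replicate 3 of either time correlated with replicates 1 and 2 of the other at between -0.282 and -0.155. Not every library correlated best with its own number. Same-numbered libraries were not taken as pairs, and the main fit had no term for replicate 3. The replicate block moved the counts to 2527 higher and 2504 lower. Added after the data were seen, a term for replicate 3 gave 2606 and 2564, and replicates 1 and 2 alone 2127 and 2047. Of the 824 genes that the rule for naming covers, many of them not named here, 741 passed the test and 614 of these stayed past it under every alternative. Kdm4a, which rose (0.45), had a log2 fold change of -0.045 in TPM as deposited. That setting leaves out the size factors, and the median of all genes tested went from -0.0074 to -0.49 with it. The depth behind the TPM was not taken into account, and the 3 libraries per time point limit the precision.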

Other observations

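Survival genes of the BCL2 family also changed: of 17 tested 10 rose, 5 of them from under 1 TPM at 0h, and 1 fell, against 28.6% and 28.3% of all genes. Mcl1, which protects myeloid cells from apoptosis, went from 8.53, 6.93 and 7.70 scaled TPM to 33.5, 31.5 and 30.4 (2.03, limma adjusted p = 6.53e-05), and Bcl2a1b, 1 of several near-identical A1 copies, from 0.250, 0 and 0.240 to 11.6, 13.9 and 12.4 (5.79). Of 19 NF-kB pathway genes 10 rose (52.6%, against 28.6% of all genes) and none fell, 5 rising without scaling.

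Among non-coding genes, 48 of 93 lincRNA genes rose and 18 fell, against 28.6% and 28.3% of all genes. Of 47 genes annotated as rRNA 36 rose, but 32 genes of the table share the same 6 values and are copies of the 5S rRNA, so they are not separate measurements. In all, 103 genes tested shared their values with another gene, in 21 sets, among them 44 that rose and 21 that fell.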
